A study of Mus musculus with 4 samples.

Results

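The subject here is a set of 10 transcription factor genes of the trophectoderm, Cdx2, Elf3, Elf5, Tfap2a, Tfap2c, Gata2, Gata3, Tead4, Ets2 and Hand1, measured in mouse embryonic stem cells after knockdown of Brg1. All probe sets whose platform gene symbol is one of the 10 were taken, which gave 19 of the 22626 probe sets that are not controls, and all 10 of the 12393 genes on the array. The cells were R1 mouse embryonic stem cells, an established line, infected with a lentivirus that carried an shRNA against Brg1 (2 arrays) or, as the control, an shRNA against GLUT4 (2 arrays). Brg1, the product of Smarca4, is the catalytic subunit that drives SWI/SNF chromatin remodelling. GLUT4 is a glucose transporter encoded by Slc2a4. Both groups carried a virus and an shRNA, and all cells were harvested 67 h after infection. The infections were made in duplicate, so n = 2 in each group.

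The trophectoderm is the outer epithelium of the blastocyst and gives rise to the trophoblast of the placenta. It separates from the inner cell mass, from which embryonic stem cells are derived, when TEAD4 and its coactivator YAP switch on Cdx2 and Gata3 in the outer cells. CDX2 and the inner cell mass factor OCT4 (Pou5f1) repress each other. ELF5, TFAP2C and ETS2 act in trophoblast stem cells, and HAND1 acts in their differentiation to giant cells. In embryonic stem cells most of these genes are held at low levels.

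Values are signals in array units, scaled by the submitters to a common level, with a trimmed mean of 200.1 on each array. Differences are of log2(signal + 20.0), knockdown minus control, which understates the change of dim genes. A gene was tested where its mean reached 23.9 signal units, the 40th percentile over probe sets, controls left out, and passed at an adjusted p under 0.05. By this test 729 of 7815 genes (9.33%) rose and 398 (5.09%) fell; the counts were 1478 and 37 with spike-in scaling and 622 and 598 with median centring. Smarca4 had signals of 652.1 and 621.5 in the knockdown against 1187 and 1214 in the control, so that log2 signal fell by 0.89 ± 0.08 (SE; adjusted p = 2.32e-04 by limma). Slc2a4 lay below the filter, with 20.9 and 23.9 against 11.7 and 19.2. All 12 embryonic stem cell markers reached the filter (4 rose, 1, Lin28a, fell and 7 did not pass), with Pou5f1 at 2556 and 2418 in the knockdown and 2367 and 2579 in the control. Lin28a no longer passed without knockdown replicate 2 (adjusted p = 0.0518 by limma), without control replicate 1 (0.0831) and with spike-in scaling (0.808), and 2 markers fell without knockdown replicate 1. The rises dropped to 2 with no intensity trend and to 2 with the mean of all probe sets.

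Markers of other cell types were measured too. Of 10 genes that mark trophoblast giant cells and spongiotrophoblast, 4 were on the array (Tpbpa, Ctsj, Plac1 and Ascl2), none reached the filter, and their summed signal was 27.2 and 20.1 in the knockdown against 43.8 and 21.7 in the control. Of 15 fibroblast feeder markers 4 were tested and 0 passed (limma; 2 higher and 2 lower at an unadjusted p under 0.05), with the collagen genes Col1a1, Col1a2 and Col3a1 below the filter. Col5a1 differed by 0.44 ± 0.15 (adjusted p = 0.0785 by limma) and Tagln, a smooth muscle gene read at 360.5 and 360.3 against 402.1 and 504.1, by -0.31 ± 0.11 (adjusted p = 0.103). Tagln passed as lower without control replicate 1 (0.0227) and with median centring (0.0475), and Col5a1 (0.0208) and Acta2 (0.0351) passed as higher with spike-in scaling. The summed feeder signal was 658 and 686.4 against 682.1 and 766.9. Of 15 primitive endoderm markers 6 were tested. Foxa2 rose by 0.94 ± 0.20 and Lama1 fell by 0.55 ± 0.13 on the log2 scale (SE), while Gata4, Gata6, Sox7 and Sox17 lay below the filter. Col4a1, a basement membrane gene, read 248.1 and 263.7 against 258.4 and 278.7. Col4a2 read 129.6 and 139.2 against 83.4 and 103.5, a difference of 0.45 ± 0.14 (adjusted p = 0.0532 by limma). It passed as higher under several settings, among them spike-in scaling (0.00912) and averaging the probe sets of each gene (0.0344). Lamb1 differed by -0.24 ± 0.15 (adjusted p = 0.297 by limma). Col4a1, Col4a2 and Lamb1 were chosen after their values were seen. Foxa2 reached the filter only through its knockdown arrays, where it read 35.7 and 51.9 against 9.90 and 16.3 in the control. It fell below the filter, and was not tested, without either knockdown array, and it lost its call without control replicate 1 (adjusted p = 0.0616 by limma). Lama1 lost it without knockdown replicate 1 (0.0616), without control replicate 2 (0.0979) and with spike-in scaling (0.303). Their summed signal was 926.6 and 924.9 against 907.4 and 976. The part of such cells in the results below was not tested.

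Of the 10 factors 5 reached the filter. Tfap2c, Hand1 and Elf3 rose, Gata2 and Ets2 did not pass the test, and 0 fell (limma; 0 at an unadjusted p under 0.05), where 9.33% of all tested genes rose and 5.09% fell. Cdx2, Elf5, Tfap2a, Gata3 and Tead4 stayed below the filter and were not tested. Hand1 reached the filter only through its knockdown arrays, so the count of rises among the tested factors is a description and carries no support of its own. In bulk RNA, fewer cells of a type and less RNA per cell cannot be told apart.

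**Figure D1:**
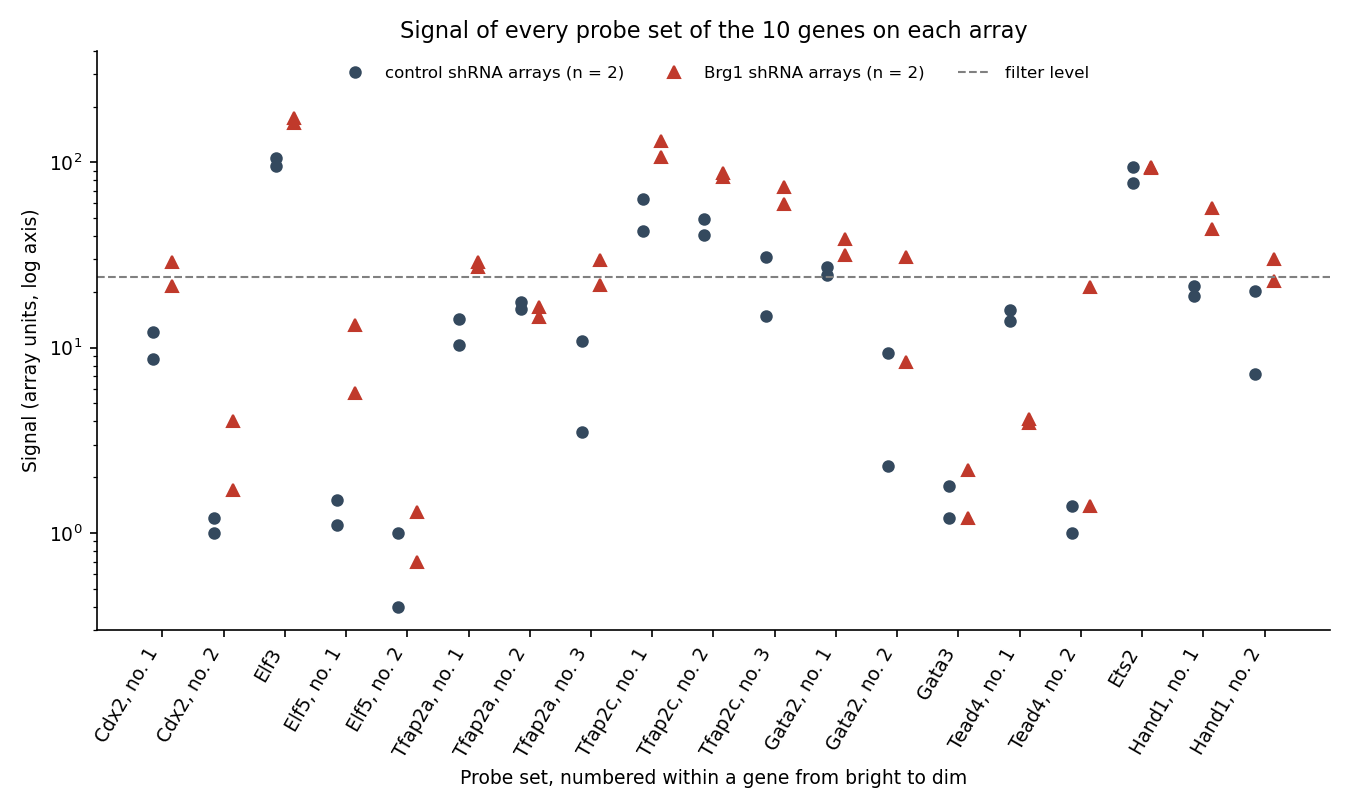
Signal on each array (vertical axis, array units, log scale) of the 19 probe sets of the 10 factors (horizontal axis), with circles for the 2 control shRNA arrays, triangles for the 2 Brg1 shRNA arrays and a dashed line at the filter level of 23.9. All 3 probe sets of Tfap2c and the single probe set of Elf3 have both triangles above both circles, those of Gata3 overlap at 1.2 to 2.2, and the brighter Tead4 probe set has both triangles below both circles.

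Tfap2c, an AP-2 factor gene, had the largest difference of the 5 tested factors at the main settings; Hand1 was above it with the smaller pseudocount (1.13 against 1.11), without knockdown replicate 1 (0.94 against 0.81) and without control replicate 2 (0.85 against 0.72). TFAP2C (AP-2 gamma) is a DNA-binding activator of trophoblast, also made in germ cells. The brightest Tfap2c probe set read 130.6 and 106.5 in the knockdown against 63.6 and 42.4 in the control. Both knockdown arrays lay above both control arrays. The means were 119 ± 17.0 and 53.0 ± 14.99 (SD, n = 2 each). On the log2 scale Tfap2c rose by 0.93 ± 0.17 (SE; adjusted p = 0.00776 by limma), which is 1.91-fold after adding the pseudocount and ranged from 0.58 to 1.11 with a larger or smaller pseudocount. The second Tfap2c probe set read 87.6 and 83.8 against 40.7 and 49.4, a difference of 0.70 ± 0.15. The third read 74.0 and 59.4 against 14.8 and 31.0, a difference of 1.04 ± 0.21. With every probe set tested by itself, all 3 passed by limma (adjusted p = 0.0156, 0.0222 and 0.0198), where 5.76% of the 13576 probe sets rose and 3.37% fell. The third reached the filter only through its knockdown arrays, as its control mean was 22.9 units. Its pass carries no support of its own. All 3 probe sets read the same RNA and are not separate evidence on the gene.

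Its paralogue Tfap2a encodes AP-2 alpha, which acts in surface ectoderm and neural crest as well as trophoblast. Its brightest probe set read 27.2 and 29.0 against 14.2 and 10.4, with a mean below the filter, and was not tested. The second read 16.5 and 14.7 against 16.2 and 17.7, and overlapped. The third read 21.7 and 29.9 against 10.9 and 3.50, again with both knockdown arrays higher, so the probe sets of Tfap2a differ among themselves. Tfap2b and Tfap2d also lay below the filter and overlapped between the groups. Among AP-2 and GATA cofactors, 6 were tested and 0 passed (limma; 0 at an unadjusted p under 0.05). Zfpm1, a GATA cofactor, differed by 0.35 ± 0.17 (SE; adjusted p = 0.193 by limma) and Wwox by 0.25 ± 0.14 (adjusted p = 0.27). Cited1, an AP-2 coactivator below the filter, was chosen after its values were seen. With no filter it passed as higher (adjusted p = 0.0191 by limma). It also passed as higher without control replicate 1 (difference 1.31) and without control replicate 2 (1.18). In those fits it reached the filter only through its knockdown arrays, so these calls carry no support of their own.

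Of the 3 ETS-family members, the epithelium-specific factor gene Elf3 rose. It read 163.1 and 172.7 in the knockdown and 104.9 and 96.1 in the control. The arrays within a group lay close together and the groups were well apart. Means were 168 ± 6.79 and 100.5 ± 6.22 (SD, n = 2 each). Elf3 rose by 0.64 ± 0.12 on the log2 scale (SE; adjusted p = 0.00824 by limma), or 1.56-fold after adding the pseudocount. Ets2, which encodes a factor of trophoblast stem cell self-renewal, read 92.9 and 94.1 against 94.9 and 77.5. The groups overlapped, and the log2 difference was 0.10 ± 0.14, with a 95% interval from -0.21 to 0.41 (adjusted p = 0.659 by limma). Elf5, a trophoblast stem cell gene that is silenced by DNA methylation in embryonic stem cells, was near the bottom of the scale. Its brighter probe set read 5.70 and 13.2 against 1.5 and 1.1, with no overlap, and its dimmer probe set 1.30 and 0.70 against 0.4 and 1.

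Promoter sequences from RefSeq (GRCm38.p6) were matched for 7 of the 10 genes, and not for Tfap2c, Hand1 and Tead4. The 250 bases before the start site are shown for Elf3, which rose, for Ets2, an ETS gene at a measurable level whose groups overlapped, and for Cdx2, the gene that defines the lineage. They lie at chr1:135258473-135258722 (minus strand), chr16:95702157-95702406 (plus strand) and chr5:147307250-147307499 (minus strand). Each is printed 5′ to 3′ on the strand of the gene, and capitals mark a TEAD site (GGAATG, which holds the ETS core GGAA), an AP-2 site (GCCNNNGGC) or a GATA core (AGATAA), searched on both strands.
Elf3: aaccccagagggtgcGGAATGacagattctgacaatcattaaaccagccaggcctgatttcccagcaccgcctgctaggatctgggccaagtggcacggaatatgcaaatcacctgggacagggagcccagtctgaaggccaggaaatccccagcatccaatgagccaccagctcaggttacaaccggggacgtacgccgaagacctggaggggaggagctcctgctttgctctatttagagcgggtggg
Ets2: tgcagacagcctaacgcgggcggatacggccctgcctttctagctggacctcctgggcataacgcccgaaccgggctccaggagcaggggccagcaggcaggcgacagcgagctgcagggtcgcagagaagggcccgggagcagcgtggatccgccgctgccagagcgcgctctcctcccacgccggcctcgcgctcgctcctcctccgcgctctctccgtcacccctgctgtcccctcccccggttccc
Cdx2: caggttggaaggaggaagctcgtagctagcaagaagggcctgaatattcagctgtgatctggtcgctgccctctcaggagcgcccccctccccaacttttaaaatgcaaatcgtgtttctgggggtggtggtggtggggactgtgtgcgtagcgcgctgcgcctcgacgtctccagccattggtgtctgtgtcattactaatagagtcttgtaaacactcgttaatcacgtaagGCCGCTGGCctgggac

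The Elf3 window held 1 match to the TEAD site, which starts 235 bases before the start site, and 4 matches to the ETS core. The Cdx2 window held 1 match to the AP-2 site, which starts 16 bases before the start site, and the Ets2 window 1 match to the ETS core and none to the other 3. Among windows not printed, the TEAD site was also in a window of Elf5 and in a window of Gata2. The AP-2 site was in that Gata2 window and 3 times in the Gata3 window. Gata2 did not pass the test, and Elf5 and Gata3 were not tested. Of 32851 promoter windows of the same length, 12.6% held the TEAD site, 13.7% the AP-2 site, 10% the GATA core and 93.4% the ETS core. These matches describe letters and are no evidence of binding.

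The GATA factors had low signals, with Gata2 just above the filter and Gata3 far below it. GATA2 and GATA3 are zinc-finger activators of trophoblast genes. Gata2 read 38.7 and 31.7 in the knockdown against 27.3 and 24.7 in the control. The groups did not overlap, but the log2 difference of 0.26 ± 0.17 did not pass the test (limma, adjusted p = 0.326), with a 95% interval from -0.12 to 0.64. A second Gata2 probe set read 30.9 and 8.40 against 2.30 and 9.40 and overlapped. Gata3 read 1.20 and 2.20 against 1.80 and 1.20, near 0 on all 4 arrays. Of the other GATA genes, Gata1, Gata4, Gata5 and Gata6 also lay below the filter. Gata4 and Gata5 were higher in the knockdown without overlap, Gata6 was lower, and Gata1 overlapped. By this measure 27.2% of all genes not tested were higher and 10.7% lower.

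TEAD4 is the DNA-binding partner of YAP that acts upstream of Cdx2. Its brighter probe set read 4.10 and 3.90 in the knockdown against 14.0 and 15.9 in the control, so Tead4 was the only factor whose brightest probe set lay lower in the knockdown without overlap. The other Tead4 probe set read 1.4 and 21.2 against 1 and 1.4, so the probe sets went opposite ways on average, and neither reached the filter. Cdx2 read 21.6 and 29.0 against 8.70 and 12.1 on its brighter probe set, and 1.7 and 4 against 1.2 and 1 on its dimmer probe set. Both knockdown arrays were above both control arrays on each, at signals too low to test. The related Cdx1 (1.6 and 1.7 against 0.9 and 0.8) and Cdx4 (12.1 and 12.5 against 6.1 and 4.5) were below the filter as well. Both were also higher in the knockdown without overlap. Of all genes not tested, 27.2% were higher and 10.7% lower by this measure.

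For signals this low the spread between arrays of a group is a large part of the value. Over the 9050 probe sets below the filter, the arrays of a group differed by a median of 4.20 units in the knockdown and 2.90 in the control, and the 95th percentile of these differences was 16.2 and 11.6 units. The group means of the brightest probe sets differed by 14.9 units for Cdx2, 15.8 for Tfap2a, 8.15 for Elf5 and -10.95 for Tead4. With the filter left out and all 12393 genes tested, none of these 4 passed (limma, adjusted p = 0.126, 0.111, 0.17 and 0.0891). In that fit Elf3 passed (0.0418), while Tfap2c (0.0565) and Hand1 (0.0675) did not.

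Hand1 encodes a basic helix-loop-helix factor of giant cells and of extraembryonic mesoderm. Its brighter probe set read 43.8 and 57.0 in the knockdown against 18.9 and 21.6 in the control. The control values were below the filter level and the knockdown values above it. The means were 50.4 ± 9.33 and 20.2 ± 1.91 (SD, n = 2 each). Hand1 rose by 0.80 ± 0.17 on the log2 scale (SE; adjusted p = 0.0157 by limma), which ranged from 0.38 to 1.13 with a larger or smaller pseudocount. The dimmer Hand1 probe set read 22.8 and 30.0 against 20.1 and 7.20, with no overlap, and was not tested. The rise of Hand1 lost its call without knockdown replicate 2 (difference 0.67, adjusted p = 0.0589) and without control replicate 1 (0.75, with 0.0613).

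HAND1 pairs with the E proteins Tcf3, Tcf4 and Tcf12, and ID proteins bind E proteins and keep them off DNA. Of 6 tested genes of this group, Id1, Id2 and Id3 rose, 0 fell (limma; 1 at an unadjusted p under 0.05) and 3 did not pass, against a background of 9.33% higher. Id2, itself a gene of the early trophectoderm, read 292.1 and 296.9 against 178 and 149.3 and rose by 0.78 ± 0.11 (SE; adjusted p = 0.00271 by limma). Id1 rose by 0.84 ± 0.09 and Id3 by 0.81 ± 0.15. The E protein genes did not pass, with log2 differences of -0.21 for Tcf3, -0.38 for Tcf4 (adjusted p = 0.118) and 0.12 for Tcf12. Tcf4 passed as lower without knockdown replicate 1 (adjusted p = 0.0333 by limma), and Tcf3 where the probe sets of a gene were averaged (0.0204). When each probe set was tested by itself, 2 genes of the group had a probe set that fell.

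**Figure D2:**
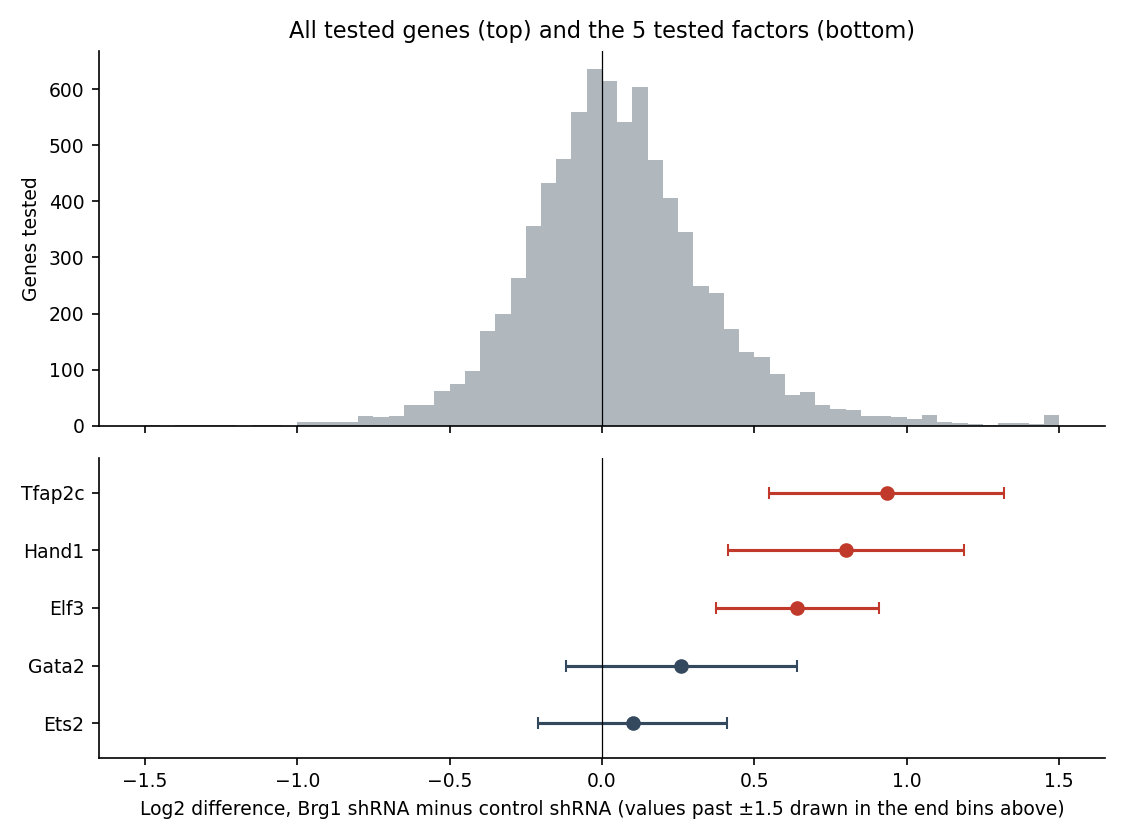
Log2 differences, Brg1 shRNA minus control shRNA, for all 7815 tested genes (top, number of genes per bin of 0.05) and for the 5 tested factors (bottom, points with 95% intervals from limma). Tfap2c (0.93), Hand1 (0.80) and Elf3 (0.64), in red, passed the test and have intervals above 0, while those of Gata2 and Ets2, in dark blue, span 0.

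Over all 19 probe sets of the factors, 12 had both knockdown arrays above both control arrays, 1 had both below, and 6 overlapped. Over the whole array, controls left out, 28.5% of probe sets were higher and 21.1% lower by this measure. Among the 12 factor probe sets below the filter the counts were 6 higher and 1 lower, where 25.5% of all such probe sets were higher and 11.2% lower. Among genes, 4 of the 5 tested factors lay higher without overlap, where 34.3% of tested genes were higher and 25.9% lower. Hand1 is among these 4 and reached the filter only through its knockdown arrays, so this count carries no support of its own. The median signal of the probe sets below the filter was 7.20 and 8.20 in the knockdown against 6.50 and 5.80 in the control, so dim signals as a whole lay slightly higher in the knockdown. Probe sets of a gene share its RNA, so the 19 are not independent.

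The directions were compared across scalings of the arrays. Scaled to the hybridisation spike-ins, the median of all tested genes moved from 0.04 to 0.31, and relative to that median Tfap2c differed by 0.87, Hand1 by 0.68 and Elf3 by 0.60. With median centring the differences were 0.88, 0.75 and 0.59. The brighter Tead4 probe set stayed below 0 with each of these scalings and with quantile normalization (-0.45 to -0.61). The sign of Gata3 turned with median centring (-0.04) and quantile normalization (-0.02), that of the dimmer Elf5 probe set with median centring (-0.03), and that of the second Tfap2a probe set with the spike-ins (0.08). Relative to the median of tested genes with the spike-ins, the dimmer Cdx2 probe set (-0.16), Gata3 (-0.27) and the dimmer Elf5 probe set (-0.28) turned. On that scale the second Tfap2a probe set stayed below 0 (-0.23), and the brighter Tead4 probe set lay at -0.76.

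**Figure D3:**
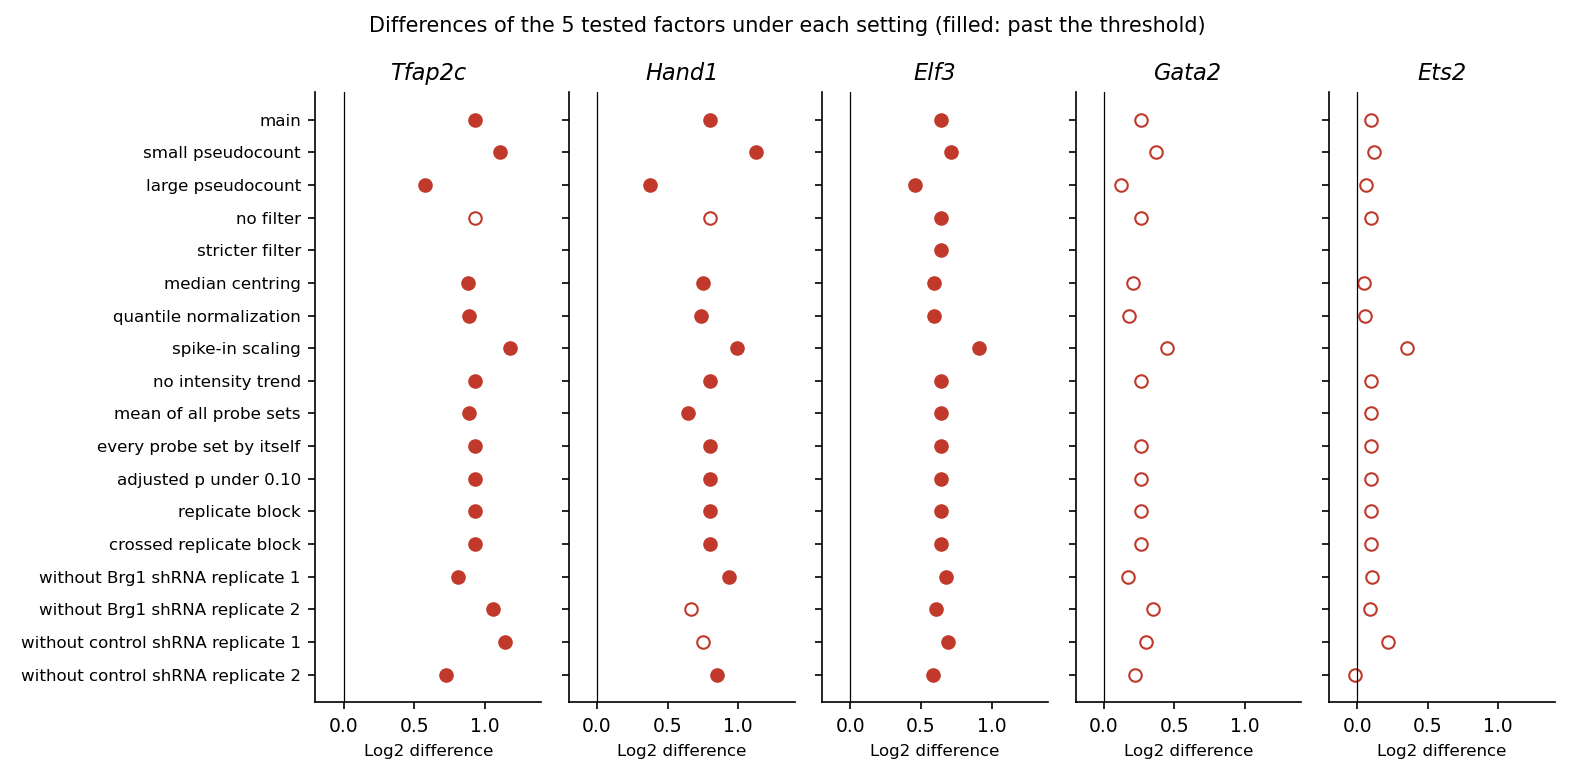
Log2 differences of the 5 tested factors (horizontal axes) under each processing setting (vertical axis), filled where the gene passed the threshold and open where it did not, with no point where the gene was not tested. Elf3 passed under all 17 alternatives, Tfap2c lost its call with no filter, Hand1 lost its call with no filter and without knockdown replicate 2 or control replicate 1, and Gata2 and Ets2 passed under none in which they were tested.

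Other regulators of trophoblast were counted in the same way. Of 8 tested, Sox15, Tfeb, Hopx and Esrrb rose, 0 fell (limma; 0 at an unadjusted p under 0.05) and 4 did not pass, with a list median of 0.35 against 0.04 for all tested genes. Sox15, an SRY-box factor of giant cells, read 71.8 and 58.5 against 22.9 and 27.0 and rose by 0.92 ± 0.16 (SE; adjusted p = 0.00682 by limma). Tfeb, a lysosomal regulator also needed for placental vessels, read 133.0 and 133.8 against 81.4 and 67.9, a rise of 0.70 ± 0.13 (adjusted p = 0.00872). Esrrb, which acts in both trophoblast stem cells and embryonic stem cells, rose by 0.38 ± 0.08, and Hopx by 0.55 ± 0.16. Eomes, which acts with Cdx2 in trophoblast stem cells, read 50.6 and 42.3 against 28.1 and 38.6 (difference 0.32 ± 0.17, adjusted p = 0.236) and was chosen after its values were seen. Of the 8 regulators below the filter, Ascl2, Dlx3, Rhox6 and Rhox9 were lower in the knockdown without overlap, Msx2, Sox21 and Ets1 were higher, and Plagl1 overlapped. Of the 4578 genes not tested, 27.2% were higher and 10.7% lower by this measure. The count of rises fell to 2 without knockdown replicate 2, where Esrrb (adjusted p = 0.0592) and Hopx (0.195) lost their calls. Without control replicate 1 Esrrb was lost too (0.0533), and without control replicate 2 Hopx (0.113).

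Structural, surface and secreted products of trophoblast moved both ways. Of 20 tested, 5 rose, 2 fell and 13 did not pass, with a median of 0.18 against 0.04 for all tested genes. At an unadjusted p under 0.05 (limma), 6 were higher and 4 lower. Of all tested genes, 9.33% rose and 5.09% fell. Lgals3 (log2 difference 2.06 ± 0.10), Krt8 (1.04 ± 0.10), Fgfr2 (0.84 ± 0.22), Bmp4 (0.66 ± 0.16) and Slc2a3 (0.24 ± 0.07) rose. Fgfr2, the receptor through which FGF4 maintains trophoblast stem cells, read 67.7 and 125.2 against 40.4 and 46.0, and the knockdown arrays differed widely. Fgfr2 lost its call with no intensity trend (adjusted p = 0.069 by limma) and with every probe set by itself (0.0533). Slc2a3 lost its call with median centring (0.13), with no intensity trend (0.164) and with every probe set by itself (0.0671). Plac8 fell from 254.5 and 212.9 to 113.4 and 112.3, or by 0.93 ± 0.12 on the log2 scale (SE; adjusted p = 0.00154 by limma). The claudin gene Cldn6 fell by 0.50 ± 0.10, a call lost with the spike-in scaling (adjusted p = 0.493). Krt18, the keratin partner of Krt8 (0.19 ± 0.09, adjusted p = 0.174), and Krt19 (-0.35 ± 0.13, adjusted p = 0.11) did not pass, and both were picked with their values in view. The count of rises was 3 without knockdown replicate 2, where Fgfr2 (adjusted p = 0.144) and Slc2a3 (0.0627) were lost. It was 2 without control replicate 1, where Fgfr2 (0.052), Bmp4 (0.124) and Slc2a3 (0.0733) were lost. Dropping knockdown replicate 1 (0.169) or control replicate 2 (0.124) also ended the call of Slc2a3.

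In the Hippo pathway, which controls the YAP partner of the TEAD factors, 4 of 18 tested genes rose, 0 fell (limma; 2 at an unadjusted p under 0.05) and 14 did not pass, with a median of 0.13. Ccn1 (Cyr61), a secreted YAP target, read 102.9 and 115.0 against 62.0 and 57.7 and rose by 0.69 ± 0.14 (SE; adjusted p = 0.0100 by limma). Nf2, an upstream activator of the kinases that inhibit YAP, read 466.9 and 469.1 against 328.9 and 342.5, a difference of 0.46 ± 0.09 (adjusted p = 0.0109). Ptpn14 (0.62 ± 0.14), which binds YAP, and the LIM protein gene Ajuba (0.28 ± 0.08) also rose. Yap1 (0.10 ± 0.09) and its relative Wwtr1 (0.10 ± 0.12), chosen after their values were seen, did not pass. The count was 2 without control replicate 1, where Ptpn14 (0.0853) and Ajuba (0.0908) were lost, and 7 with the spike-in scaling. Ptpn14 also lost its call without knockdown replicate 2 (0.0546), and Ajuba without knockdown replicate 1 (0.148), without control replicate 2 (0.0688) and with median centring (0.0851). Nf2 lost its call with the mean of all probe sets (0.0942).

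Among paralogues of the factors, 15 were tested and 0 passed (limma; 4 higher and 1 lower at an unadjusted p under 0.05), against 14.4% of all tested genes. Tead3 read 59.9 and 79.1 against 39.8 and 49.3 and differed by 0.47 ± 0.17 (SE; adjusted p = 0.0909 by limma), and Etv5 differed by 0.25 ± 0.09 (adjusted p = 0.104). Tead2 read 239.1 and 200.8 against 225.5 and 307.4 and overlapped, and Tead1 read 47.3 and 31.5 against 24.4 and 23.5 (adjusted p = 0.152); both were chosen after their values were seen. Hand2 lay below the filter, with 13.9 and 10.9 against 1.8 and 5.5. It was higher in the knockdown without overlap, as were 27.2% of all genes not tested. Tead3 passed without knockdown replicate 1 (adjusted p = 0.0388) and Etv5 without control replicate 2 (0.0366), and with the spike-in scaling 4 paralogues rose.

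Factors of the inner cell mass, several of which oppose the trophectoderm programme, were counted beside these. Of 14 tested, 6 rose, 0 fell (limma; 1 at an unadjusted p under 0.05) and 8 did not pass, with a median of 0.25. Nanog (0.87 ± 0.08), Klf4 (0.76 ± 0.13), Klf2 (0.76 ± 0.09), Dppa2 (0.71 ± 0.07), Fgf4 (0.52 ± 0.10) and Esrrb, which is also in the list of trophoblast regulators, were the rises. Pou5f1, which CDX2 represses, had a log2 difference of 0.01 ± 0.07 and a 95% interval from -0.15 to 0.17, and Sox2 one of -0.22 ± 0.09 (adjusted p = 0.125). These 2 were chosen after their values were seen. Without knockdown replicate 1, 7 rose and Sox2 fell (adjusted p = 0.0292). With the mean of all probe sets Fgf4 (adjusted p = 0.0712) and Esrrb (0.234) lost their calls.

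**Figure D4:**
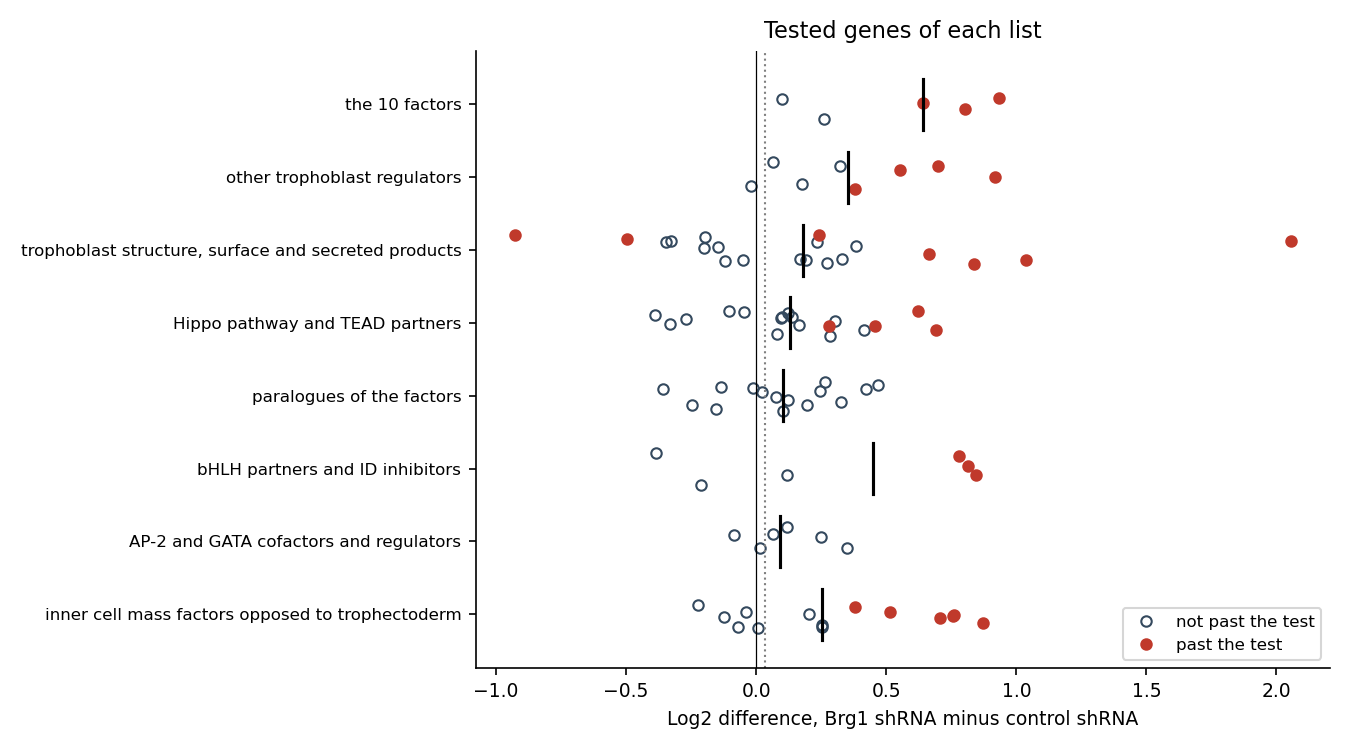
Log2 difference, Brg1 shRNA minus control shRNA (horizontal axis), of each tested gene in the 10 factors and in 7 related lists (vertical axis, points spread for visibility), filled where the gene passed the test. Black bars mark list medians and the dotted line the median of all tested genes (0.04); the paralogue and cofactor lists hold no filled point.

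The genes that flank the factors were looked at last. On each side of each factor, the nearest protein-coding gene on the array was taken from the RefSeq gene order, a choice made after other values were seen. Of these 20 neighbours 14 were tested and 0 passed (limma; 1 at an unadjusted p under 0.05), against 14.4% of all tested genes. Rnpep, beside Elf3, read 83.7 and 73.2 in the knockdown and 60.5 and 82.7 in the control. Rtf2, beside Tfap2c, read 301.7 and 304.7 against 357.3 and 328.9 (log2 difference -0.17 ± 0.10, adjusted p = 0.277), and Bmp7, on its other side, lay below the filter. Sap30l and Larp1, beside Hand1, had log2 differences of 0.02 ± 0.10 and 0.11 ± 0.08.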

How the data were processed

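Linear intensity values were deposited, as made by the authors with the Affymetrix software GCOS, per the submitters' processing notes. Its version is not given in the sources used here. The 4 arrays had equal trimmed means (2% left out at each end). Precision is limited by their number. Probe sets were named through the platform annotation: 20380 of 22626 had 1 gene, 691 several and 1555 none. Symbols were updated by Entrez ID through RefSeq (GRCm38.p6; 20351 matched).

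Per gene, the probe set with the highest mean log2 value was used, with the less specific _x_at kind kept for genes lacking any other. Tests used limma 3.58.1 in R 4.3.3 (lmFit, eBayes with an intensity trend, two-sided), fitted on all genes past the filter, with Benjamini-Hochberg adjustment over them. A fit of every probe set by itself gave the values of further probe sets. Lists are described by counts and medians, with no set test. Named genes are the 10 factors, the 2 shRNA targets and, per list, up to 6 genes past the test in each direction, or the 2 with the smallest p where fewer than 2 passed. The members and lists were chosen with earlier results of these data known. Same-numbered arrays of the groups did not deviate together (correlation -0.14 over tested genes), and the replicate number was not used as a block in the main fit. With 2 arrays in a group, this correlation cannot show whether the infections were paired. The alternatives are given in the closing section.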

Additional observations from a re-analysis of the deposited data

How the results depend on the processing

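The number of factors that rose was 1 (Elf3) with no filter and 1 with the stricter filter at 92.4 signal units, where Elf3 alone was tested. Leaving out each array in turn gave 2 to 3, and the other settings gave 3. The number that fell was 0 under each of the 17 alternatives. With the replicate number as a block, the count of rises was 3 (Tfap2c adjusted p = 6.60e-04, Hand1 0.00757, Elf3 0.00548), and it was 3 with the crossed pairing, which was added after seeing the data; the crossed pairing also gave a fall of Tcf4 (adjusted p = 0.0398). Over all genes these fits gave 778 and 930 rises and 409 and 548 falls. The difference of Ets2, which passed nowhere, ranged from -0.0177 to 0.219 with an array left out and turned sign without control replicate 2. Over the alternatives, adjusted p ranged from 5.17e-04 to 0.0418 for Elf3, from 2.65e-06 to 0.0565 for Tfap2c and from 2.69e-04 to 0.0675 for Hand1. Counts over all genes differed by over 1.5 times from 729 rises and 398 falls with no filter (324 and 109), with the spike-in scaling (1478 and 37), at a threshold of 0.10 (1111 and 664) and without knockdown replicate 2 (423 and 191). Falls alone did so with median centring (598), with no intensity trend (219), without control replicate 1 (233) and without control replicate 2 (256). The cause of these shifts was not tested. With 2 arrays in a group, leaving 1 out assumes that the remaining array varies like the other group. Low signals limit what can be said of Cdx2, Elf5, Tfap2a, Gata3 and Tead4.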

Other observations

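A few genes related to the factors lay below the filter by their mean over all 4 arrays but did not overlap between the groups. They were chosen after their values were seen and were not tested at the main settings. With no filter, Cited1 (adjusted p = 0.0191 by limma) and Sct (0.0237) passed, and Id4 (0.108) and Adm (0.141) did not. Cited1, a transcriptional coactivator of AP-2 factors that is made in trophoblast, read 47.2 and 39.4 in the knockdown against 7.8 and 5.4 in the control, a log2 difference of 1.25. Sct, the precursor of the hormone secretin, read 28.1 and 39.7 against 3.10 and 3.50, a difference of 1.20. Id4, the remaining ID gene, read 29.8 and 31.4 against 13.2 and 14.9. Adm, which encodes the vessel-acting peptide adrenomedullin and is made by giant cells, went the other way, with 8.10 and 3.90 against 15.7 and 16.7. Of the 9050 probe sets below the filter, 25.5% were higher and 11.2% lower in the knockdown without overlap.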
